A study of Mus musculus with 8 samples.

Results

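The 10 genes described here are the mouse genes of MHC class II presentation, namely H2-Aa, H2-Ab1, H2-Eb1, H2-DMa, H2-DMb1, H2-DMb2, H2-Oa, H2-Ob, Cd74 and Ciita. They were taken by name from a table of 25466 genes, and all 10 were found there and passed the filter on low counts. RNA-seq had been performed on medullary thymic epithelial cells (mTECs) that were FACS-isolated from the thymus of wild-type mice. The animals belonged to a Black 6 strain, aged a few weeks, with no transgene and no treatment. Sorted mTECs were CD45neg, Epcampos and CDR1neg, and they were divided by surface staining for Tspan8, a tetraspanin used as an example of a tissue-restricted antigen, and for MHCII. The 4 subsets were Tspan8negMHCIIlo, Tspan8negMHCIIhi, Tspan8posMHCIIhi and Tspan8posMHCIIlo, each with 2 libraries labelled as biological replicates. Per the study, the MHCIIlo gate takes in cells before as well as after the MHCIIhi stage, so that an MHCIIlo subset is not a single stage.

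MHC class II molecules display peptides on the cell surface to CD4 T cells. Their α and β chains pair in the endoplasmic reticulum with the invariant chain (Cd74), which blocks the groove and directs the complex to endosomes. There proteases trim the invariant chain to the CLIP fragment, H2-DM exchanges CLIP for other peptides, and H2-O binds H2-DM and restrains it. Transcription of these genes depends on Ciita, a coactivator without DNA contacts of its own that docks on RFX, CREB and NF-Y factors bound to the X and Y boxes of class II promoters. In the thymic medulla, mTECs use this route to present self-antigens to developing T cells, and the amount of MHCII on the surface is the customary measure of their maturation.

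The MHCII gate was set with antibodies to the I-A(b) or the I-A/I-E protein. H2-Aa and H2-Ab1 encode the chains of I-A, so their difference between MHCIIhi and MHCIIlo libraries is tied to the sort and is a check of it. The other 8 genes were not part of the gate, but their products work on the same protein. H2-Eb1 encodes the β chain of I-E, which Black 6 mice do not bring to the surface because they lack a functional α chain gene, H2-Ea. H2-Ea had 2 and 5 counts in the Tspan8negMHCIIhi libraries and 0 in the other 6, where the floor of 3 counts allows a level of 0.41 to 1.65 CPM in those 6 (counts scaled to a common library size).

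In GRCm38, 8 of the 10 genes lie in 224 kb of chromosome 17, between bases 34092340 and 34316674, in the order H2-Oa, H2-DMa, H2-DMb2, H2-DMb1, H2-Ob, H2-Ab1, H2-Aa and H2-Eb1. H2-Ab1 spans bases 34257689 to 34269419 on the plus strand, and H2-Aa spans 34282744 to 34287823 on the minus strand. Ciita lies on chromosome 16 from 10480059 to 10528418 on the plus strand. In the annotation the genes H2-Eb1, H2-DMa, H2-Oa and Ciita overlap a gene on the opposite strand, and H2-DMa and Cd74 also one on the same strand. Sources differ on whether strand was kept, so counts of these 5 genes may include reads of their neighbours. H2-DMb1 and H2-DMb2 are near copies of each other. Of the 54-base windows in their transcripts, 21.2% (H2-DMb1) and 23.0% (H2-DMb2) occur in another gene, H2-DMb1's only in H2-DMb2, and reads from such windows cannot be assigned with certainty.

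Promoter windows of 300 bases around the RefSeq start sites (GRCm38.p6) were at hand for 7 of the 10 genes. H2-Ab1, Cd74 and Ciita had no entry. The windows are shown because the genes moved together and because the X and Y boxes are where Ciita's partners dock. The Y box was searched as ATTGG and the X box by the letters CNNNNAAC, which were chosen after these promoters had been seen. Both are printed in capitals, 5′ to 3′ on the coding strand.
H2-Aa: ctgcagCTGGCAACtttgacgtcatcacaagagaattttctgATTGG
H2-Eb1: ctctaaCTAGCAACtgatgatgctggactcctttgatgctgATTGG
H2-DMb2: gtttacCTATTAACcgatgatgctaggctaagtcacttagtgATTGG
H2-Oa: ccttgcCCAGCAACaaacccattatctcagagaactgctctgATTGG
H2-Ob: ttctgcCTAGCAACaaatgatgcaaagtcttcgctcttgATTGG
H2-Eb2: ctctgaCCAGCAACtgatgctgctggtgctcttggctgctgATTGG
H2-DMb1, X box part: gtttacCTAGTAACtgatgatgctaggc
H2-DMb1, Y box part: tcactcagtgATTGG

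H2-Eb2, a class II β chain gene next to H2-Eb1, is included for comparison, and H2-DMb1 is given in parts because most of that stretch lies within its annotated first exon. The stretches shown for H2-Aa (minus strand) and H2-Eb1 (plus strand) lie at chr17:34287867-34287913 and chr17:34305767-34305812. From the first base of the X letters to the first base of the Y box there were 36 bases in H2-Aa, H2-DMb1, H2-DMb2 and H2-Oa, 35 in H2-Eb1 and H2-Eb2, and 33 in H2-Ob. The X letters began 79 to 135 bases upstream of the RefSeq start site. In GENCODE, H2-DMb1 and H2-DMb2 start further upstream, at bases 34153072 and 34143307, so their stretches lie inside the annotated genes. Among all 32851 promoter windows of the same length, 37.4% held the Y box on either strand, 81.6% the X letters, and 2.78% the X letters followed by a Y box 25 to 45 bases on. Neither of the 2 H2-DMa windows held the pair. These matches describe letters in a window and are not evidence of binding.

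Library totals ran from 1941518 to 7783841 counts, 4.01 times apart, with the smallest in replicate 1 of Tspan8posMHCIIlo. All 8 markers of mTECs were detected, with a summed level of 3140 to 5780 CPM, but single markers ran opposite ways. Mean Aire was 208.5 CPM in Tspan8negMHCIIlo, 2567 in Tspan8negMHCIIhi, 471.6 in Tspan8posMHCIIhi and 25.1 in Tspan8posMHCIIlo. Mean Krt5 was lowest in Tspan8negMHCIIhi at 257.2 CPM, and mean Epcam highest in Tspan8posMHCIIlo at 1017. The 5 markers listed for cortical epithelium summed to 118 to 350 CPM, with Psmb11, which defines it, at 2.20 to 18.9 CPM. Foxn1, on that list, is not particular to the cortex, and was at 207.5 and 220.5 CPM in Tspan8negMHCIIhi. Tspan8 was at 3.65 to 14.6 CPM in the Tspan8neg libraries and at 347.4 to 404.5 CPM in the Tspan8pos libraries. Replicate 2 of Tspan8negMHCIIlo stood apart from replicate 1, with Tspan8 at 14.6 against 3.65 CPM and 8 thymocyte markers summing to 1130 against 411 CPM. In the other 6 libraries the thymocyte sum was 68.2 to 209 CPM. Of 6 dendritic cell and 6 macrophage markers, all were in the table. The dendritic cell sum was 95.2 and 102 CPM in Tspan8negMHCIIhi and 37.4 to 50.5 in the other libraries, with Clec9a at 0 in both Tspan8posMHCIIlo libraries. Zbtb46 alone made up 71.1 and 70.6 CPM of it in Tspan8negMHCIIhi. Itgax and Siglech ran the other way. Itgax was at 9.27 and 25.7 CPM in Tspan8negMHCIIlo against 4.16 and 6.15 in Tspan8negMHCIIhi, and Siglech at 1.69 and 2.83 against 0.416 and 0.769. The macrophage sum was 319 to 408 CPM in the MHCIIhi and 44.1 to 126 in the MHCIIlo libraries, most of it Lyz2, with Adgre1 at 15.2 and 23.1 CPM in Tspan8negMHCIIhi and at 0 to 4.47 elsewhere, and with Fcgr1 at 0 in all Tspan8negMHCIIlo and Tspan8posMHCIIhi libraries. The B cell sum of 6 markers was 29.8 to 70.3 CPM in all libraries and highest in replicate 2 of Tspan8negMHCIIlo. This even sum hid opposed changes. Cd79b was at 40.7 and 31.4 CPM in Tspan8posMHCIIlo against 9.57 and 15.5 in Tspan8negMHCIIhi. Each other B cell marker had a lower mean in Tspan8posMHCIIlo than in Tspan8negMHCIIhi, as Pax5 with 4.39 against 16.1 CPM. The macrophage sum moved with the MHCII gate and the dendritic cell sum, mostly by Zbtb46, with Tspan8negMHCIIhi. Cd68, on the macrophage list, went with the Tspan8 arm instead. It was at 42.4 and 46.9 CPM in Tspan8posMHCIIhi and 41.2 and 41.1 in Tspan8posMHCIIlo, against 23.7 and 21.4 in Tspan8negMHCIIhi and 10.1 and 14.9 in Tspan8negMHCIIlo. Marker transcripts can come from such cells or from the mTECs, which per the study express tissue-restricted genes promiscuously. Bulk libraries cannot tell these sources apart, and their part in the class II levels was not tested. In bulk libraries, fewer cells with a transcript and less of it per cell cannot be told apart.

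The 10 genes together took 3.18% and 3.28% of all counts in the Tspan8negMHCIIhi libraries. Their share was 1.34% and 1.45% in Tspan8posMHCIIhi, 1.15% and 1.01% in Tspan8negMHCIIlo, and 0.338% and 0.31% in Tspan8posMHCIIlo. Every member had its highest level in Tspan8negMHCIIhi and its lowest in Tspan8posMHCIIlo, with no overlap between the libraries of these subsets. Of all genes tested, 39.0% were lower without overlap in Tspan8posMHCIIlo than in Tspan8negMHCIIhi, whatever their level in the other subsets. The middle positions were close together. In the order of means, Tspan8posMHCIIhi came before Tspan8negMHCIIlo in 9 members, and in Ciita after it. Levels are CPM after TMM normalization, and fold changes come from edgeR's quasi-likelihood test over the 17006 genes that passed the filter. A gene was called where the Benjamini-Hochberg adjusted p was below 0.01 and the log2 fold change was 1 or more in size.

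**Figure D1:**
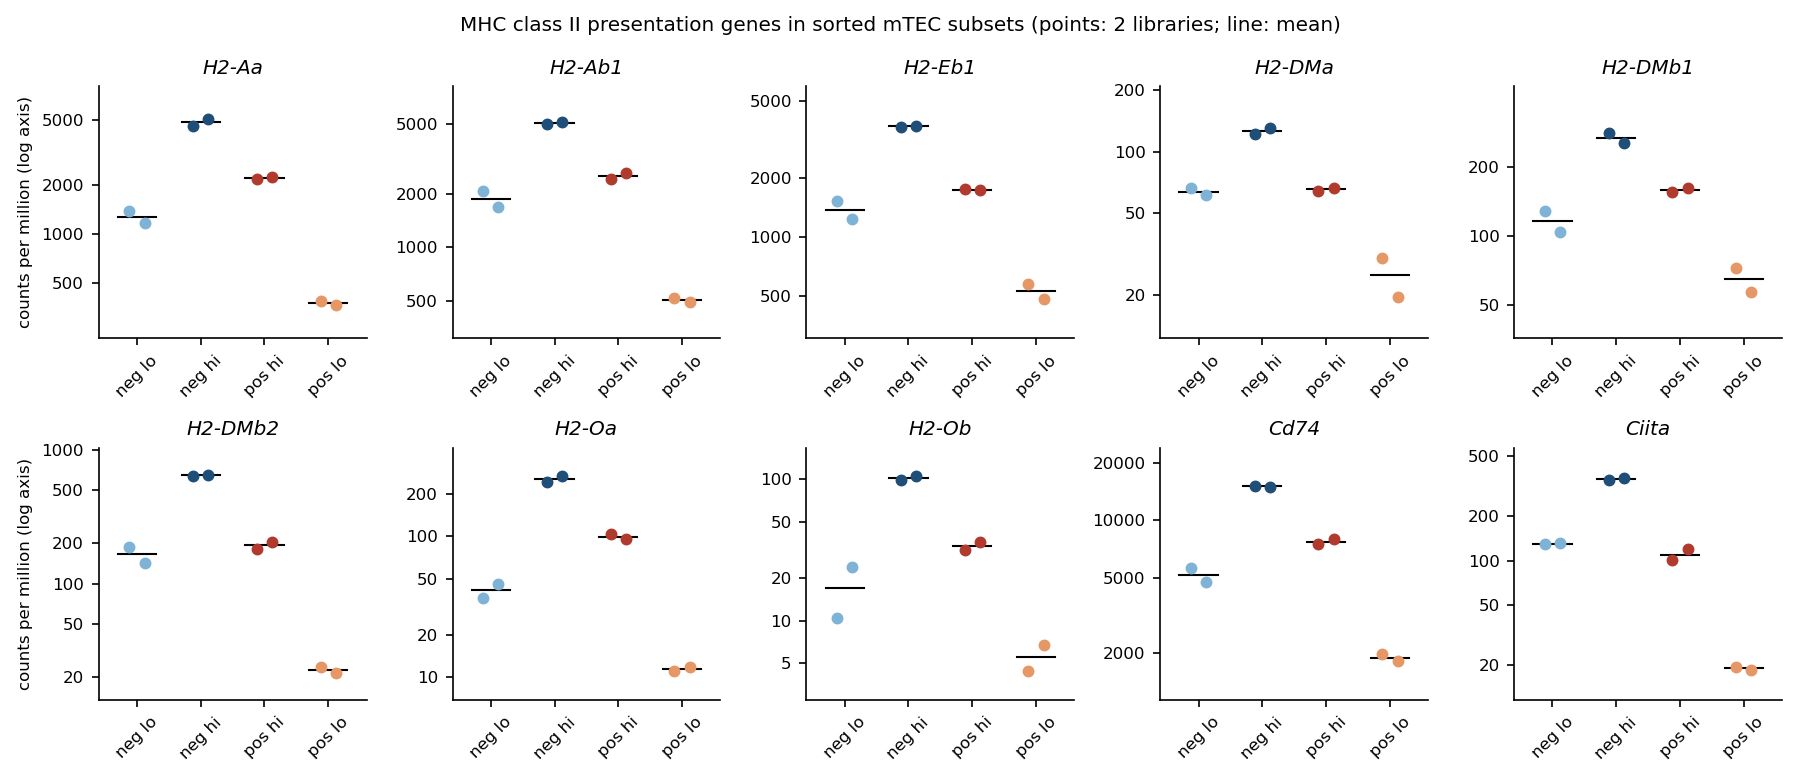
Level of each of the 10 genes in CPM on a log axis with its own range in each panel, for the subsets Tspan8negMHCIIlo (neg lo), Tspan8negMHCIIhi (neg hi), Tspan8posMHCIIhi (pos hi) and Tspan8posMHCIIlo (pos lo). Points are the 2 libraries of a subset and lines their mean. Each gene peaks in neg hi and is lowest in pos lo, where Ciita stands at 19.2 and 18.6 CPM against 346.9 and 358.6 in neg hi.

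Among the α and β chains of I-A and I-E, H2-Aa, the I-A α chain, stood at 1376 and 1167 CPM in Tspan8negMHCIIlo, 4603 and 5060 in Tspan8negMHCIIhi, 2177 and 2237 in Tspan8posMHCIIhi and 385.3 and 364.2 in Tspan8posMHCIIlo. H2-Ab1, the I-A β chain, stood at 2074 and 1700, 4988 and 5098, 2431 and 2619, and 517.8 and 489.0 CPM in the same order of subsets. H2-Eb1 was at 1523 and 1232, 3672 and 3716, 1753 and 1744, and 573.3 and 483.5 CPM. No pair of subsets overlapped in any of these chains, and Tspan8posMHCIIhi lay nearer to Tspan8negMHCIIlo than to Tspan8negMHCIIhi although it had been sorted as MHCIIhi. Cd74, the invariant chain, had 5597 and 4725, 15080 and 15040, 7464 and 7952, and 1974 and 1818 CPM. It was the member with the highest level per kilobase of transcript in every subset, at 11400 ± 19.9 CPM per kb (SD, n = 2) in Tspan8negMHCIIhi and 1430 ± 83.2 in Tspan8posMHCIIlo. H2-Ab1 followed with 5520 ± 84.5 and 551 ± 22.3 CPM per kb.

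For the peptide editor, H2-DMa, its α chain, was at 66.3 and 61.3 CPM in Tspan8negMHCIIlo, 121.4 and 131.0 in Tspan8negMHCIIhi, 64.1 and 66.6 in Tspan8posMHCIIhi, and 30.2 and 19.5 in Tspan8posMHCIIlo. H2-DMb1, a β chain gene, was at 128.4 and 103.7, 279.9 and 252.5, 154.7 and 161.9, and 72.6 and 57.2 CPM. The second β chain gene, H2-DMb2, was at 187.3 and 143.1, 637.8 and 652.3, 180.2 and 206.2, and 23.6 and 21.6 CPM. H2-DMa and H2-DMb2 overlapped between Tspan8negMHCIIlo and Tspan8posMHCIIhi, and no other pair of subsets overlapped in these genes. The H2-O chains were less abundant, and per kilobase H2-Ob was the lowest member in every subset. H2-Oa, the α chain, had 36.5 and 45.7, 243.7 and 266.3, 103.2 and 94.9, and 11.0 and 11.7 CPM. H2-Ob, the β chain, had 10.4 and 23.8, 99.2 and 104.5, 31.7 and 36.2, and 4.40 and 6.69 CPM, with the widest spread between replicates in Tspan8negMHCIIlo, whose replicate 2 stood apart in the markers above. In both H2-O chains the MHCIIhi libraries lay above all MHCIIlo libraries. Ciita stood at 128.9 and 131.1 CPM in Tspan8negMHCIIlo, 346.9 and 358.6 in Tspan8negMHCIIhi, 100.2 and 118.9 in Tspan8posMHCIIhi and 19.2 and 18.6 in Tspan8posMHCIIlo, with no overlap between subsets. Both Ciita levels of Tspan8posMHCIIhi therefore lay under those of Tspan8negMHCIIlo. Counts per gene do not separate the alternative promoters of Ciita.

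Within Tspan8neg mTECs, the comparison of MHCIIhi with MHCIIlo asks which class II genes go with the surface protein in cells without the antigen Tspan8. In this comparison 9 of the 10 members were called higher in Tspan8negMHCIIhi, as were 13.1% of all genes tested, and none lower (9.67% of all genes). All 10 were higher in both libraries than in both of the other subset, as were 35.1% of all genes. The members' median log2 fold change was 1.49, against -0.039 over all genes tested. H2-Oa rose 6.18-fold (log2 fold change 2.63 ± 0.15 (SE), edgeR adjusted p = 1.01e-06) and H2-Ob 5.86-fold (2.55 ± 0.28, edgeR adjusted p = 4.42e-05). The H2-Ob value depended on replicate 2 of Tspan8negMHCIIlo, with a log2 fold change of 3.28 without it. H2-DMb2 rose 3.91-fold (1.97 ± 0.16) and H2-Aa 3.8-fold (1.93 ± 0.12). Cd74 rose 2.92-fold, Ciita 2.71-fold (1.44 ± 0.13, edgeR adjusted p = 1.36e-05), H2-Eb1 2.68-fold, H2-Ab1 2.67-fold and H2-DMb1 2.3-fold. H2-DMa had a log2 difference of 0.99 ± 0.17 (edgeR adjusted p = 9e-04) and missed the fold limit. Without replicate 2 of Tspan8negMHCIIlo, 9 members were called. Of the markers of other cells, 2 of 4 tested dendritic cell and 2 of 5 tested macrophage genes were called higher in Tspan8negMHCIIhi. Of 8 thymocyte genes, 6 were called lower, and of 5 genes listed for cortical epithelium 1 was called higher and 1 lower. The 1 called higher was Foxn1, which is not particular to the cortex. The source of these transcripts and their part in the members' changes were not tested.

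Within Tspan8pos mTECs all 10 members were called higher in Tspan8posMHCIIhi than in Tspan8posMHCIIlo, where 4.59% of all genes were called higher and 2.62% lower. All 10 were also higher without overlap, as were 30.3% of all genes. The median of the members was 2.40, against 0.0067 over all genes. H2-DMb2 rose 8.65-fold (log2 fold change 3.11 ± 0.18, edgeR adjusted p = 5.55e-06) and H2-Oa 8.58-fold (3.10 ± 0.18). H2-Aa rose 5.9-fold (2.56 ± 0.13), Ciita 5.82-fold (2.54 ± 0.16, edgeR adjusted p = 6.19e-06), H2-Ob 5.57-fold, H2-Ab1 5.02-fold and Cd74 4.07-fold. The smallest changes were those of H2-Eb1 (3.31-fold), H2-DMa (2.8-fold) and H2-DMb1 (2.48-fold). Without replicate 2 of Tspan8posMHCIIlo, which leaves its shallow replicate alone, 7 members were called, and H2-DMa (adjusted p = 0.0156), H2-DMb1 (0.0138) and H2-Ob (0.0197) missed the threshold. Of the markers of other cells, 1 of 5 macrophage genes was called higher in Tspan8posMHCIIhi. None of the tested cortical epithelium, thymocyte, B cell and dendritic cell genes was called in either direction.

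**Figure D2:**
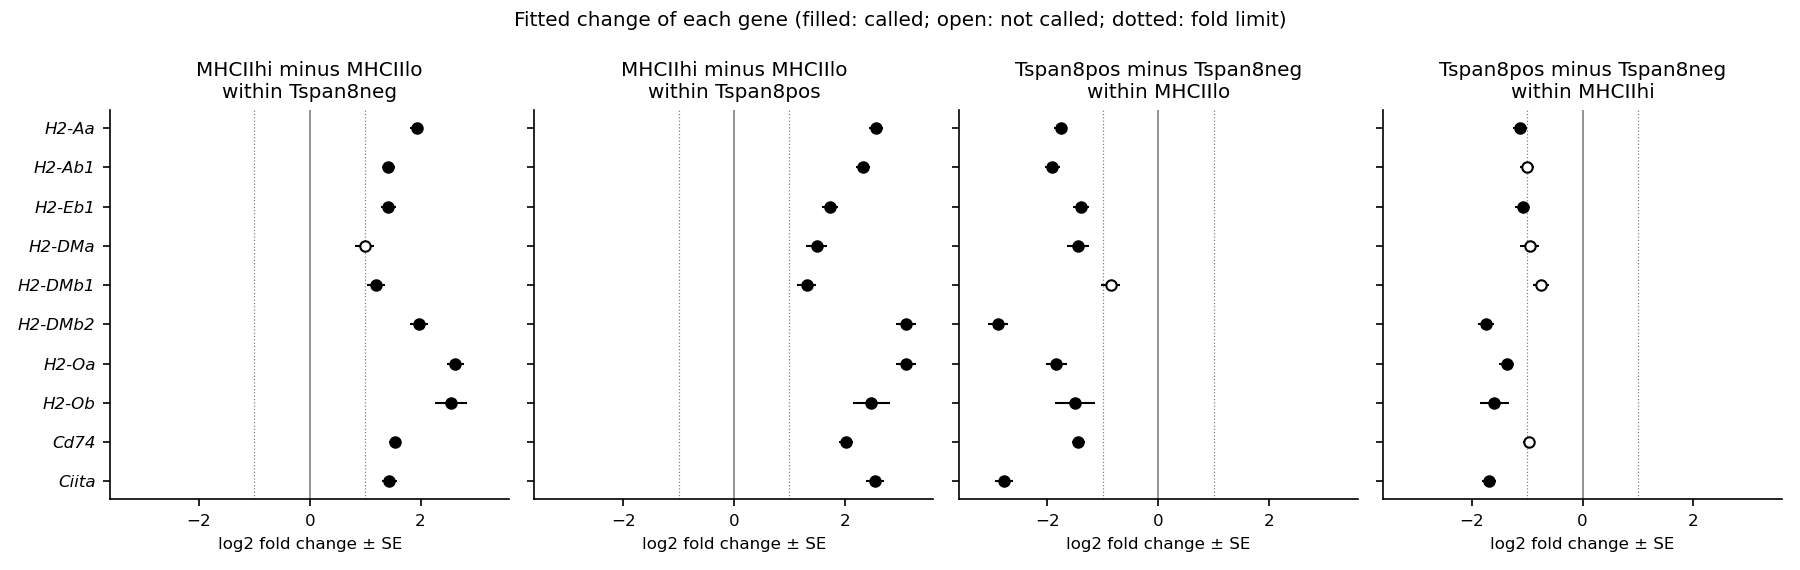
Log2 fold change of each gene (x axis, error bars ± SE from edgeR) in the comparisons within a Tspan8 or an MHCII level. Filled points passed the thresholds, open points did not, and dotted lines mark the fold limit of 1. Every point lies right of 0 for MHCIIhi minus MHCIIlo and left of 0 for Tspan8pos minus Tspan8neg, from -0.75 (H2-DMb1) to -2.89 (H2-DMb2).

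The change from MHCIIlo to MHCIIhi was larger in Tspan8pos than in Tspan8neg mTECs for 2 members, H2-DMb2 and Ciita, by the test of the difference itself, which called 2.24% of all genes in that direction. For H2-DMb2 the log2 changes of 3.11 and 1.97 differed by 1.15 ± 0.23 (edgeR adjusted p = 0.00943). For Ciita those of 2.54 and 1.44 differed by 1.10 ± 0.20 (edgeR adjusted p = 0.00628). H2-Ab1, with a difference of 0.91 ± 0.17 (edgeR adjusted p = 0.00739), missed the fold limit. The other 7 members had differences from -0.07 (H2-Ob) to 0.63 (H2-Aa) and were not called. The calls were not stable when a library was left out, but no single library carried the differences. They stayed at 0.98 to 1.35 for H2-DMb2 and 0.98 to 1.25 for Ciita. Thinning every library to the smallest total also ended the calls, at 1.19 for H2-DMb2 (edgeR adjusted p = 0.012) and 0.87 for Ciita (edgeR adjusted p = 0.0417). Leaving out either library of Tspan8negMHCIIhi, Tspan8posMHCIIhi or Tspan8posMHCIIlo left no member called, with differences of 0.98 to 1.27 for both genes, leaving out replicate 1 of Tspan8negMHCIIlo left 1, and leaving out its replicate 2 gave 3.

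**Figure D3:**
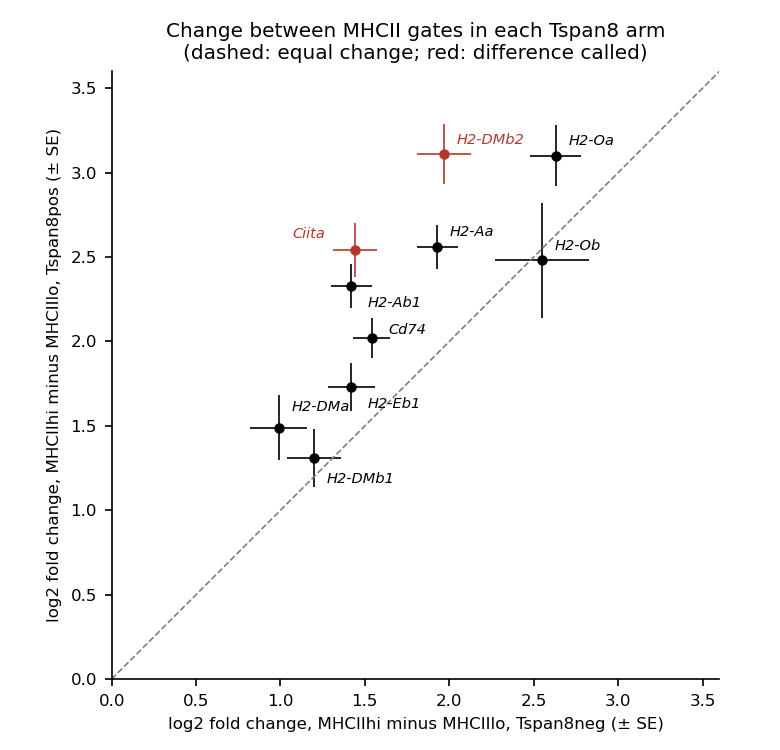
Log2 fold change of each gene between the MHCII gates in Tspan8neg (x axis) and in Tspan8pos mTECs (y axis), with SE as error bars and a dashed line where both are equal. H2-DMb2 and Ciita, in red, lie above the line by 1.15 and 1.10, while H2-Ob lies on it within its error.

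Between Tspan8posMHCIIlo and Tspan8negMHCIIlo, subsets that share the MHCIIlo gate, 9 of 10 members were called lower in Tspan8posMHCIIlo, as were 9.34% of all genes, and none higher (12.1% of all genes). All 10 were lower without overlap, as were 34.5% of all genes, and the members' median was -1.64, against -0.029. H2-DMb2 was 7.39-fold lower (log2 fold change -2.89 ± 0.18, edgeR adjusted p = 5.86e-07) and Ciita 6.91-fold lower (-2.79 ± 0.16, edgeR adjusted p = 3.32e-07). H2-Ab1 was 3.75-fold lower (-1.91 ± 0.13), H2-Oa 3.58-fold, H2-Aa 3.39-fold, H2-DMa 2.73-fold, Cd74 2.72-fold and H2-Eb1 2.61-fold. H2-DMb1 had a log2 difference of -0.86 ± 0.17 (edgeR adjusted p = 0.00177) and missed the fold limit. H2-Ob was 2.85-fold lower (-1.51 ± 0.36, edgeR adjusted p = 0.00649), but the difference was -0.76 (adjusted p = 0.0744) without replicate 2 of Tspan8negMHCIIlo, and all but 1 of the other libraries also cost it the call when left out (replicate 1 of Tspan8negMHCIIlo was the exception). Of the other cells' markers, 4 of 8 thymocyte, 2 of 5 cortical epithelium, 1 of 6 B cell and 1 of 4 dendritic cell genes were called lower. Called higher were 1 B cell and 1 macrophage gene.

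Within the MHCIIhi gate, 6 members were called lower in Tspan8posMHCIIhi than in Tspan8negMHCIIhi, as were 7.45% of all genes, and none higher (11.0% of all genes). All 10 were lower in both libraries, as were 38.0% of all genes, with a median of -1.10, against -0.027. H2-DMb2 was 3.34-fold lower (log2 fold change -1.74 ± 0.15, edgeR adjusted p = 7.87e-06), Ciita 3.22-fold lower (-1.69 ± 0.13, edgeR adjusted p = 3.6e-06) and H2-Ob 3-fold lower (-1.59 ± 0.26). H2-Oa (2.58-fold), H2-Aa (2.19-fold) and H2-Eb1 (2.11-fold) were lower too. The remaining 4 lay close to the fold limit. H2-Ab1 stood 2-fold lower (SE of the log2 fold change 0.12), just under the limit before rounding. Cd74 had a log2 difference of -0.97 ± 0.11, H2-DMa of -0.95 ± 0.17 and H2-DMb1 of -0.75 ± 0.15. The edgeR adjusted p-values of these 4 ran from 5.87e-05 to 0.00295. H2-Ob's call was lost without replicate 1 of Tspan8posMHCIIhi (adjusted p = 0.0139). Here 2 of 4 dendritic cell, 1 of 5 macrophage and 1 of 6 B cell markers were called lower too, and their part was not tested. No cortical epithelium marker was called.

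The diagonal comparisons set the extremes of the order and its middle neighbours side by side. Tspan8posMHCIIlo lay under Tspan8negMHCIIhi in all 10 members, all called and without overlap, where 14.6% of all genes were called lower, by 28.9-fold for H2-DMb2, 22.1-fold for H2-Oa, 18.7-fold for Ciita and 16.7-fold for H2-Ob, down to 4.17-fold for H2-DMb1. Of the other cells' markers, 3 of 6 B cell, 2 of 4 dendritic cell, 3 of 5 macrophage and 2 of 5 cortical epithelium genes (Foxn1 among them) were called lower there too. Called higher were 1 B cell and 1 thymocyte gene, and the source of these transcripts and their part were not tested. The middle neighbours, Tspan8posMHCIIhi and Tspan8negMHCIIlo, differed in 1 called member, H2-Oa, which was 2.4-fold higher in Tspan8posMHCIIhi (log2 fold change 1.26 ± 0.15, edgeR adjusted p = 6.28e-05), where 14.4% of all genes were called higher. H2-Aa (0.80 ± 0.12, edgeR adjusted p = 0.000294) and Cd74 (0.58 ± 0.11, edgeR adjusted p = 0.00153) passed the p threshold under the fold limit. For H2-Ab1 (0.42 ± 0.12), H2-Eb1 (0.34 ± 0.13), H2-DMb1 (0.45 ± 0.16), H2-DMb2 (0.23 ± 0.15), H2-DMa (0.0365 ± 0.17), H2-Ob (0.96 ± 0.29) and Ciita (-0.25 ± 0.13), neighbours in the order did not differ past the threshold, with edgeR adjusted p-values from 0.0154 to 0.882. Without replicate 2 of Tspan8negMHCIIlo, H2-Ob was called as well, at 1.71 (adjusted p = 9.17e-05). In this comparison 7 of 8 thymocyte, 2 of 5 cortical epithelium, 1 of 6 B cell and 1 of 4 dendritic cell markers were called lower. Called higher were 2 of 5 macrophage markers.

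The members did not keep fixed proportions to each other. Ratios within a library do not depend on its depth or scaling, and are given per kilobase of transcript, as a description with no test. H2-DMb2 to H2-DMb1 was 1.42 and 1.34 in Tspan8negMHCIIlo, 2.22 and 2.52 in Tspan8negMHCIIhi, 1.14 and 1.24 in Tspan8posMHCIIhi, and 0.318 and 0.368 in Tspan8posMHCIIlo. The β chain genes of H2-DM thus changed places, with H2-DMb2 above H2-DMb1 in 6 libraries and under it in both Tspan8posMHCIIlo libraries. H2-DMb1 to H2-DMa stayed between 1.92 and 3.32 in all 8 libraries. Some reads fit both β chain genes, and the size of the ratio rests on how such reads were split.

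H2-Oa to H2-DMa was 0.805 and 1.09 in Tspan8negMHCIIlo, 2.93 and 2.97 in Tspan8negMHCIIhi, 2.35 and 2.08 in Tspan8posMHCIIhi, and 0.532 and 0.879 in Tspan8posMHCIIlo. By these counts the transcript of the H2-O α chain, whose protein restrains H2-DM, was more abundant relative to that of the H2-DM α chain in every MHCIIhi than in every MHCIIlo library. Both genes overlap a gene on the opposite strand, so the ratio may be shifted by reads of those neighbours. H2-Ob to H2-DMb1 was 0.241 and 0.281 in Tspan8negMHCIIhi, with 0.139 and 0.152 in Tspan8posMHCIIhi, 0.055 and 0.156 in Tspan8negMHCIIlo and 0.0412 and 0.0795 in Tspan8posMHCIIlo. Here the gates overlapped in replicate 2 of Tspan8negMHCIIlo.

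H2-Eb1 to H2-Ab1 stayed at 0.428 to 0.473 in 6 libraries and was 0.712 and 0.636 in the Tspan8posMHCIIlo libraries. Cd74 to H2-Ab1 likewise lay between 1.86 and 2.11 in 6 libraries and at 2.63 and 2.56 in Tspan8posMHCIIlo. Both H2-Eb1 and Cd74 thus stood higher relative to H2-Ab1 in the subset with the lowest levels. H2-Aa to H2-Ab1 was 0.62 and 0.642 in Tspan8negMHCIIlo, 0.863 and 0.928 in Tspan8negMHCIIhi, 0.837 and 0.799 in Tspan8posMHCIIhi, and 0.696 in both Tspan8posMHCIIlo libraries, so the I-A α chain came closer to the β chain in both MHCIIhi subsets. Ciita to H2-Ab1 separated the Tspan8 arms instead of the gates. It was 0.0163 to 0.0203 in the 4 Tspan8neg libraries and 0.00976 to 0.0119 in the 4 Tspan8pos libraries.

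**Figure D4:**
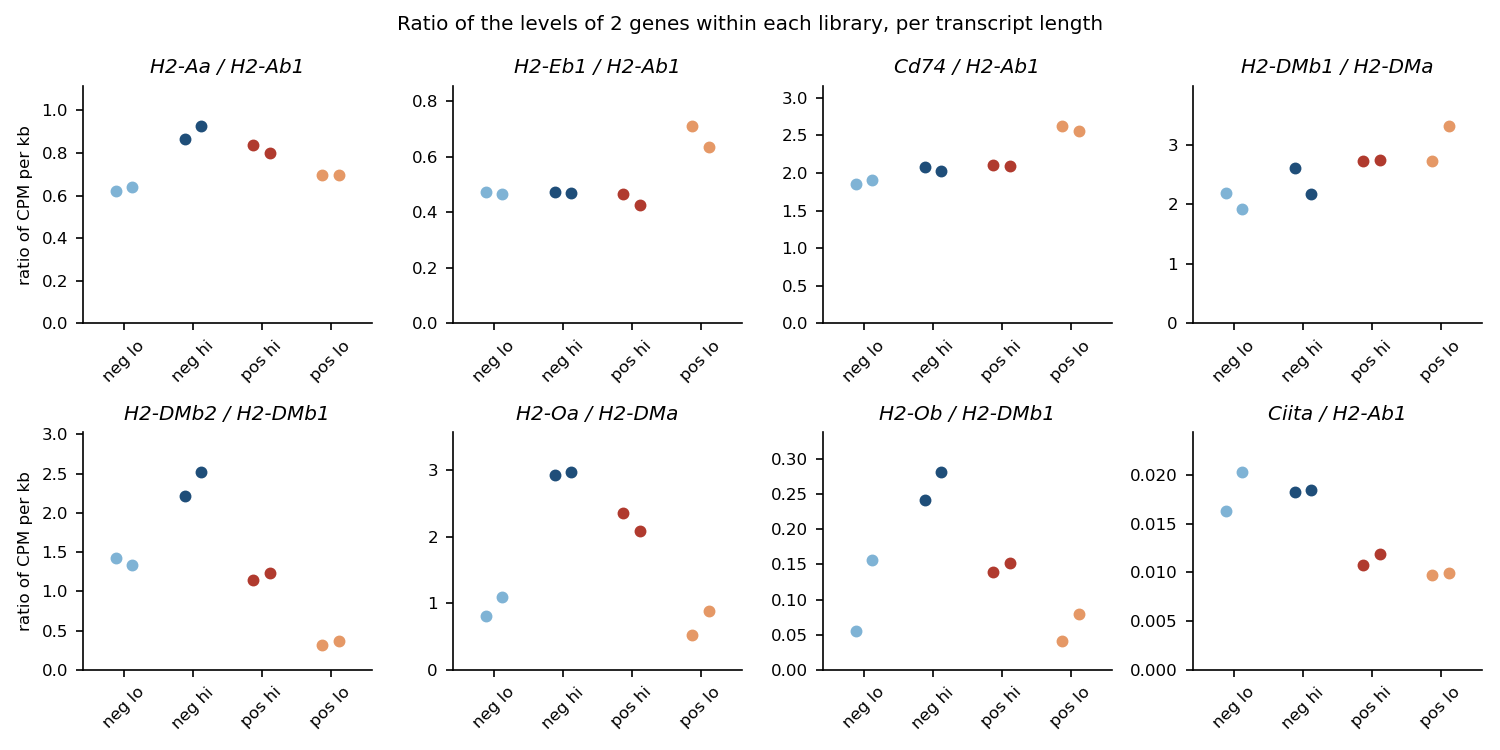
Ratio of the CPM per kilobase of 2 genes within each library, on linear axes from 0, for the subsets in the order neg lo, neg hi, pos hi, pos lo. H2-DMb2 to H2-DMb1 falls to 0.318 and 0.368 in pos lo, H2-Oa to H2-DMa is above 2 in the hi subsets, and Ciita to H2-Ab1 is lower in all Tspan8pos libraries.

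By Pearson's r of log2 CPM over the 8 libraries, which share their 4 subsets, the genes outside the members most like Ciita among 11024 compared were Ptprq (0.9948), Actn3 (0.9946), Ccr7 (0.9923), Kcna2 (0.9917) and Loxl2 (0.9913). Ptprq had means of 147, 362, 136 and 26.2 CPM in Tspan8negMHCIIlo, Tspan8negMHCIIhi, Tspan8posMHCIIhi and Tspan8posMHCIIlo, which is also the Ciita order. Among the members r with Ciita ran from 0.9114 (H2-Ob) to 0.9922 (H2-DMb2). For H2-Ab1 the nearest were Fcer2a (0.9981), Rasd2 (0.9975), Tnfrsf9 (0.9920), Ptprq (0.9873) and AU020206 (0.9861). Fcer2a, the low-affinity IgE receptor CD23, had means of 23.8, 106, 36.7 and 3.01 CPM in the same order of subsets.

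The wider class II route was followed in 40 other genes, of which 38 were tested. Most did not move with the members. Between the MHCII gates 5 were called higher and 2 lower in Tspan8neg mTECs, and 2 higher and none lower in Tspan8pos mTECs, with medians of -0.21 and -0.07, against -0.039 and 0.0067 over all genes, of which 13.1% and 4.59% were called higher and 9.67% and 2.62% lower. H2-Eb2, a neighbouring β chain gene, was at 36.0 and 38.4 CPM in Tspan8negMHCIIlo, 432.1 and 465.8 in Tspan8negMHCIIhi, 115.7 and 103.2 in Tspan8posMHCIIhi, and 9.34 and 8.74 in Tspan8posMHCIIlo. It rose 12.1-fold between the gates in Tspan8neg (edgeR adjusted p = 2.41e-07) and 12.3-fold in Tspan8pos mTECs (edgeR adjusted p = 3.32e-06), a larger change than that of any of the 10 members. Ctss, the protease cathepsin S that trims the invariant chain in antigen-presenting cells, had 44.1 and 55.4, 149.9 and 175.9, 115.9 and 111.3, and 29.1 and 37.4 CPM in the same order. Both MHCIIhi subsets were above both MHCIIlo subsets, and Ctss rose 3.27-fold (edgeR adjusted p = 2.14e-05) and 3.32-fold (edgeR adjusted p = 7.97e-05).

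Ctsl, cathepsin L, which does the trimming in the thymic cortex, ran the other way in Tspan8neg mTECs. Its levels were 953.3 and 605.5 CPM in Tspan8negMHCIIlo, 138.1 and 142.4 in Tspan8negMHCIIhi, 236.8 and 237.3 in Tspan8posMHCIIhi, and 369.9 and 395.6 in Tspan8posMHCIIlo. It fell between the gates in Tspan8neg mTECs (log2 fold change -2.47 ± 0.19, edgeR adjusted p = 4.69e-06) and not past the threshold in Tspan8pos mTECs, and the difference of 1.78 ± 0.26 was itself called (edgeR adjusted p = 0.00198). Ifi30, a thiol reductase of endosomes, rose 3.29-fold between the gates in Tspan8neg mTECs, and so did Cd83, which stabilizes class II at the surface, by a log2 fold change of 1.28. Among the factors that carry Ciita, Rfx5 rose 2.34-fold there (edgeR adjusted p = 0.000137), while the other 7 of 8 RFX, NF-Y and CREB genes were not called and none of the 8 was called between the gates in Tspan8pos mTECs. None of 5 coactivators was called between the gates in either arm.

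**Figure D5:**
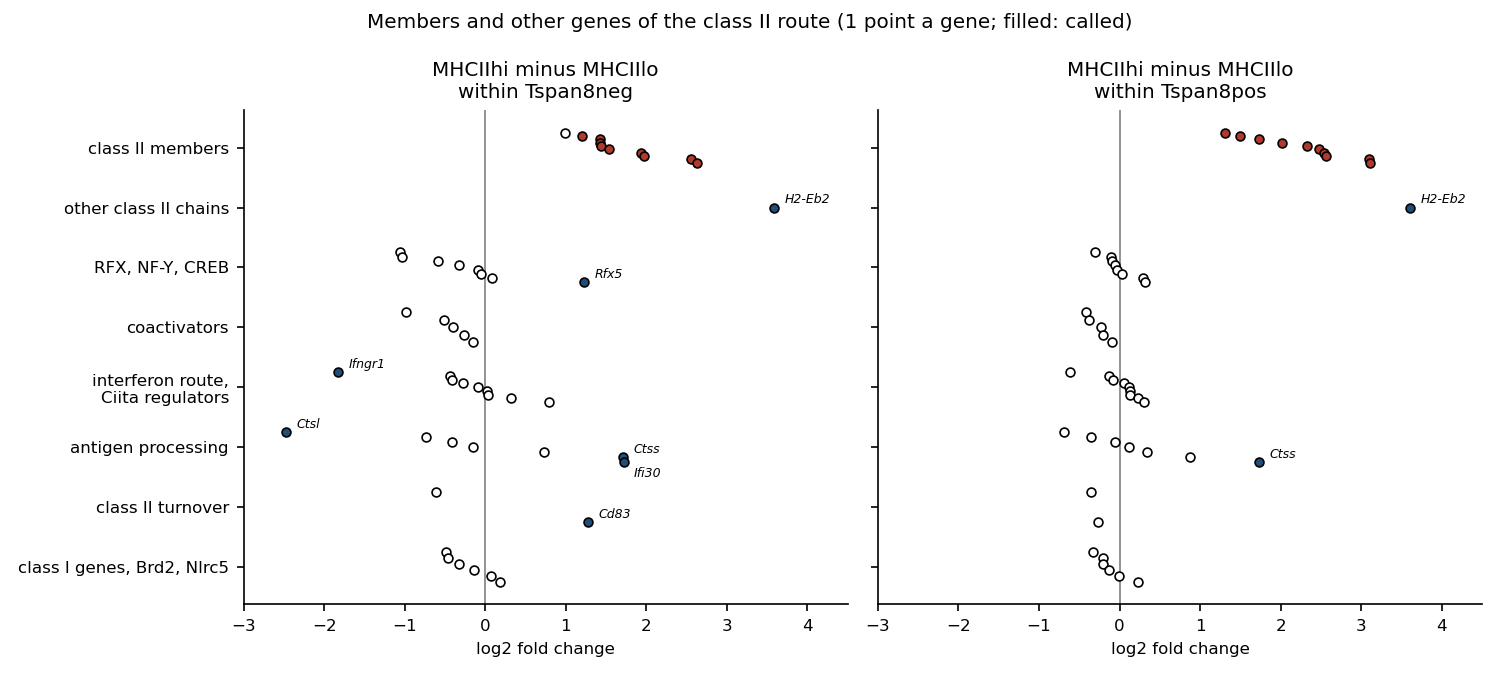
Log2 fold change between MHCIIhi and MHCIIlo (x axis) for the 10 members and for 38 other genes of the class II route, grouped in rows by role, 1 point a gene, in Tspan8neg (left) and Tspan8pos mTECs (right). Filled points were called. Members lie at 0.99 to 3.11, while most other rows scatter around 0, apart from H2-Eb2 at 3.59 and 3.61.

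Of 9 genes on the interferon gamma route to Ciita or otherwise known to regulate it, Ifngr1, a receptor chain, fell between the gates in Tspan8neg mTECs (log2 fold change -1.83 ± 0.19, edgeR adjusted p = 3.19e-05), and the change differed from that in Tspan8pos mTECs by 1.95 ± 0.27 (edgeR adjusted p = 0.00145). Prdm1 encodes Blimp-1, which is known as a repressor of Ciita in plasma cells. It was at 25.6 and 18.9 CPM in Tspan8negMHCIIlo, 15.6 and 16.9 in Tspan8negMHCIIhi, 124.7 and 79.7 in Tspan8posMHCIIhi, and 161.1 and 151.0 in Tspan8posMHCIIlo. All Tspan8pos libraries lay above all Tspan8neg libraries, and Prdm1 was 7.04-fold higher in Tspan8pos mTECs within the MHCIIlo gate (edgeR adjusted p = 4.24e-06) and 6.25-fold within the MHCIIhi gate (edgeR adjusted p = 6.78e-06). No link between Prdm1 and Ciita was tested.

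Between the Tspan8 arms the 38 genes had 2 called higher and 2 lower within the MHCIIlo gate, and 4 higher and 3 lower within the MHCIIhi gate, with medians of -0.05 and 0.18. Over all genes 12.1% were called higher and 9.34% lower within the MHCIIlo gate and 11.0% and 7.45% within the MHCIIhi gate, with medians of -0.029 and -0.027. On the diagonals, 6 of the 38 were called higher and 2 lower in Tspan8posMHCIIhi than in Tspan8negMHCIIlo (14.4% and 10.3% of all genes), and 5 higher and 5 lower in Tspan8posMHCIIlo than in Tspan8negMHCIIhi (14.7% and 14.6%), with medians of -0.04 and 0.11, against 0.018 and 0.0029 over all genes. Ctsd, the endosomal protease cathepsin D, was higher in Tspan8pos mTECs, 4.65-fold within the MHCIIlo and 6.03-fold within the MHCIIhi gate, opposite to the members. Cd83 was lower in Tspan8posMHCIIhi than in Tspan8negMHCIIhi (log2 fold change -2.13 ± 0.29, edgeR adjusted p = 0.000197). H2-Eb2 was lower in Tspan8pos mTECs within both gates (log2 fold changes of -2.06 and -2.04). Rfx5 was also lower in Tspan8posMHCIIhi (-1.07 ± 0.16), and Kat2b, a histone acetyltransferase, was higher there by 1.39 ± 0.19. Among genes that lie between the class II genes or serve MHC class I, Psmb8, Psmb9, Tap1, Tap2, Brd2 and Nlrc5, none of 6 was called in any of these comparisons. Nlrc5, the class I counterpart of Ciita, had means of 197.4 CPM in Tspan8negMHCIIlo, 179.3 in Tspan8negMHCIIhi, 251.3 in Tspan8posMHCIIhi and 315.5 in Tspan8posMHCIIlo. Brd2, whose gene overlaps H2-DMa on the opposite strand, had means of 532.5, 607.2, 518.0 and 518.2 CPM, and Psmb8 and Tap1, which lie within the class II region, had 139.7 to 171.0 and 236.1 to 371.9 CPM. Genes of the same region were thus measured that were not called.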

How the data were processed

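RNA-seq of 8 mTEC libraries was analysed, grouped by the subset and replicate number in the sample titles. The authors deposited estimated counts of genes (whole numbers, 1 column a library) without normalization. Per the study's methods, amplified cDNA was tagmented, sequenced as 54-base single-end reads and quantified with Salmon 1.8.0 on Gencode transcripts. The labels name a stranded mRNA kit instead. The authors' DESeq2 1.30.0 results were not used. Symbols and coordinates come from GENCODE (GRCm38), which matched 25336 of 25466 identifiers.

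Counts were tested in R 4.3.3 with edgeR 4.0.16 (glmQLFit, glmQLFTest, TMM, filterByExpr, 4 subset means in 1 fit of all 8 libraries), two-sided, with Benjamini-Hochberg adjustment over 17006 genes. The biological coefficient of variation was 15.5%. Standard errors were derived from the fold change and its F statistic. Exact permutation of 2 against 2 libraries cannot go below p = 0.333 and was not used. Same-numbered libraries deviated together only weakly (correlations 0.00402 to 0.0924) and were not paired. Replicates differed by more than counting noise (chi-square per gene 3.29 to 9.84). Nothing in the labels says whether a library pooled several animals. Levels per kilobase use the mean length of protein-coding transcripts. The floor is 3 counts, and floors cover counting error only, since PCR copies cannot be told from separate molecules here. The script was tested on simulated data.

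The members and the lists of route and marker genes were chosen with earlier results of these data known. Named genes are the members, Tspan8, genes of the route lists that were called (up to 4 with the largest change in a comparison), with Rfx5, Kat2b, Cd83 between the gates, Nlrc5, Brd2, Psmb8 and Tap1 added after their values were seen, and the 5 genes most like Ciita and H2-Ab1 with a mean of at least 10 CPM. Alternatives were DESeq2 1.42.0, DESeq2 size factors, other filters and thresholds, the 4 libraries of a comparison alone, a replicate block, thinning to 1941518 counts, another transcript length and leaving out each library.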

Additional observations from a re-analysis of the deposited data

Results flagged for a closer look

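H2-DMb2 and Ciita were marked because the test of the difference between the Tspan8 arms called them. The MHCIIhi to MHCIIlo change of H2-DMb2 was larger in Tspan8pos mTECs by 1.15 on the log2 scale, with all Tspan8posMHCIIlo libraries at 21.6 to 23.6 CPM. For Ciita the difference was 1.10, with Tspan8posMHCIIlo at 18.6 to 19.2 CPM. Both calls were lost after thinning to equal totals (adjusted p = 0.012 for H2-DMb2 and 0.0417 for Ciita) and without any 1 of 6 libraries, those of Tspan8negMHCIIhi, Tspan8posMHCIIhi and Tspan8posMHCIIlo. In both arms and for both genes, each MHCIIhi library lay above each MHCIIlo library of its arm.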

How the results depend on the processing

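Of the members' log2 fold changes under all alternatives, 1100 kept direction and side of the threshold, 43 passed it anew, 28 lost it and 9 changed sign, the last among differences that were not called. The number of members called higher in Tspan8negMHCIIhi than in Tspan8negMHCIIlo stayed at 9 to 10 throughout, that in Tspan8posMHCIIhi against Tspan8posMHCIIlo at 7 to 10, that lower in Tspan8posMHCIIlo than in Tspan8negMHCIIlo at 8 to 10, and all 10 were lower in Tspan8posMHCIIlo than in Tspan8negMHCIIhi under every setting. In Tspan8posMHCIIhi against Tspan8negMHCIIhi, 6 were called, 10 with no fold change limit, 9 with DESeq2 and 5 to 9 when a library was left out. Between Tspan8posMHCIIhi and Tspan8negMHCIIlo, 1 was called, 2 with no filter on low counts, 2 with the replicate block, 3 with no fold change limit and 1 to 2 when a library was left out. The difference between the Tspan8 arms was called for 2 members, for 1 with DESeq2 size factors in the edgeR fit, for 0 after thinning to the smallest total and for 0 to 3 when a library was left out. With the replicate block 2 were called, and over all genes 1236 in place of 783. The labels do not say whether same-numbered libraries were prepared together. The thymocyte marker sum was higher in replicate 2 than in replicate 1 of every subset, so a shared replicate effect cannot be set aside.

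Signs that turned were those of H2-Ob in the difference between the arms (-0.82 to 0.40 with 1 library left out, 0.15 after thinning, 0.40 without replicate 1 of Tspan8negMHCIIlo, 0.05 without replicate 1 of Tspan8posMHCIIhi, 0.40 without replicate 2 of Tspan8posMHCIIlo), of H2-DMb1 in the same difference (-0.06 to 0.30, -0.0031 without replicate 1 of Tspan8negMHCIIlo, -0.03 without replicate 2 of Tspan8negMHCIIhi, -0.06 without replicate 2 of Tspan8posMHCIIlo), and of H2-DMa between Tspan8posMHCIIhi and Tspan8negMHCIIlo (-0.02 to 0.11, -0.02 after thinning and -0.02 without replicate 2 of Tspan8negMHCIIlo). Tspan8 itself turned without replicate 2 of Tspan8negMHCIIlo, to 1.12 between the gates in Tspan8neg mTECs (range -0.87 to 1.12) and to -1.04 in the difference between the arms (range -1.04 to 0.98). The cause was not tested. With the longest annotated transcript as the length, H2-Aa fell under H2-Eb1 per kilobase in all subsets. Depth limits the least abundant members most, with 8 counts of H2-Ob and 20 of H2-Oa in replicate 1 of Tspan8posMHCIIlo.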
